A study of Mus musculus with 6 samples.

Results

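Interferon-stimulated genes were examined in ischemic skeletal muscle of wild-type (WT) mice and of mice lacking Gpr174, an X-linked receptor for lysophosphatidylserine on lymphocytes. The genes were taken from a list of 38 transcripts known to respond to type I or type II interferon. Values were found for 36 of them, among 18089 genes in the table, and Mx1 and Mx2 were not analysed here. All 36 passed the filter on low counts.

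Both groups were male C57BL/6 mice of 8 to 10 weeks whose left femoral artery had been ligated and excised (hindlimb ischemia, HLI), and muscle was collected 7 days later. The WT group and the Gpr174-/Y group had 3 libraries each, all from ischemic muscle, so there was no uninjured reference. The knockout was not confined to a cell type by any driver named in the study, and its controls were WT littermates. Whole muscle was sequenced, so that more cells of a type and more RNA per cell cannot be told apart. Libraries held between 18417077 and 19394469 expected read counts. Gpr174 itself was scarce, with 8, 2 and 5 counts in the WT libraries and 1, 0 and 0 in the Gpr174-/Y libraries, which follows the labels. Its difference was -3.76 on the log2 scale (SE 0.99, adjusted p = 0.0176, edgeR without the filter that otherwise removed it).

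Type I interferons signal through IFNAR1 and IFNAR2, the kinases JAK1 and TYK2, and a complex holding STAT2 and IRF9 that binds the interferon-stimulated response element (ISRE). Type II interferon, made mainly by T and NK cells, signals through IFNGR1 and IFNGR2 and the kinases JAK1 and JAK2 to the gamma-activated site (GAS) of its target genes. The target genes encode antiviral effectors, sensors of foreign nucleic acid, GTPases of cell-autonomous defence, peptide transport for antigen presentation, and chemokines for activated T cells. In injured muscle these pathways are best known in infiltrating macrophages, although muscle fibres and endothelial cells respond to interferon as well.

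The response element is the sequence that many of these genes share. RefSeq promoter windows (build GRCm38.p6, from 250 bases before the annotated start to 50 bases after it) were at hand for 29 of the 36 genes. The ISRE core (GAAA, any 2 bases, then GAAA again), searched on both strands with overlapping matches counted, was present in 17 of the 29 (58.6%), against 3.99% of 27025 genes with a window. The GAS letters (TTC, any 3 bases, then GAA) were present in 8 of the 29 (27.6%), against 9.55% of those 27025. No ISRE core was found in the windows of Cmpk2, Cxcl9, Ifi35, Ifi44, Ifit2, Irf1, Irf7, Irf9, Oasl1, Oasl2, Tap1 and Xaf1, which says only that these letters are not in this stretch. A match of letters is a description and not a measured binding site.

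To cover several roles, 6 genes were taken, namely the ubiquitin-like modifier Isg15, Ifit1 and Ifit3 of the IFIT family, the GTPases Gbp2 and Igtp, and the chemokine Cxcl10. The levels of Cxcl10 departed most from those of the other genes. Stretches upstream of these 6 genes are shown. They lie on build GRCm38.p6 at chr4:156200858-156200913 (minus strand, Isg15), chr19:34640769-34640829 (plus strand, Ifit1), chr19:34583359-34583429 (plus strand, Ifit3), chr3:142620573-142620633 (plus strand, Gbp2), chr11:58199491-58199551 (plus strand, Igtp) and chr5:92349069-92349124 (minus strand, Cxcl10). All 6 lie wholly before the annotated start and are written 5′ to 3′ along the gene, with the letters of the ISRE core, on either strand, in capitals.
Isg15: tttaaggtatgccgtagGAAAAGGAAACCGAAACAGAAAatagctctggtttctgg
Ifit1: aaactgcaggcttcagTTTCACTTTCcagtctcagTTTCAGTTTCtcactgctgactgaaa
Ifit3: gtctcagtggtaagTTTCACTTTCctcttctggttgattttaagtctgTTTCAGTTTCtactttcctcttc
Gbp2: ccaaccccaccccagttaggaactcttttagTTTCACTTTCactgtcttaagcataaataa
Igtp: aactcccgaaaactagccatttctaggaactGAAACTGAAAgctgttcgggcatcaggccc
Cxcl10: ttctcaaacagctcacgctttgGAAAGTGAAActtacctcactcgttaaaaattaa
The Isg15 stretch holds overlapping cores in a row, whereas Ifit1 and Ifit3 each hold a pair that is spaced apart.

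Before any comparison, the independence of the libraries was examined, and replicate 2 stood out in both groups. Its counts were those of a weighted sum of replicates 1 and 3 of its own group, with 60.5% of replicate 1 in WT and 60.6% in Gpr174-/Y muscle. Over 11972 WT genes with at least 50 counts in each of the 3 libraries, the mean squared deviation from that sum was 0.540 times the value that counting error of 3 separate libraries gives, and over 12370 genes in Gpr174-/Y muscle it was 0.445 times. The deviation lay inside the 95% range of counting error for 99.3% and 99.6% of these genes. No library other than a replicate 2 came closer than 1.903 times (Gpr174-/Y replicate 1). Replicate 2 thus differed from a sum of the other libraries by less than sampling noise, and its independence cannot be taken for granted. Counts of calls are given with and without replicate 2, whereas values, SDs, intervals and adjusted p values of single genes include it unless stated.

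The interferon-stimulated genes followed the same sums. Replicate 2 was off the weighted sum by a median of 1.84% in WT and 1.44% in Gpr174-/Y muscle, the widest gaps being 10.52% for Dhx58 and 5.65% for Rtp4.

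**Figure D1:**
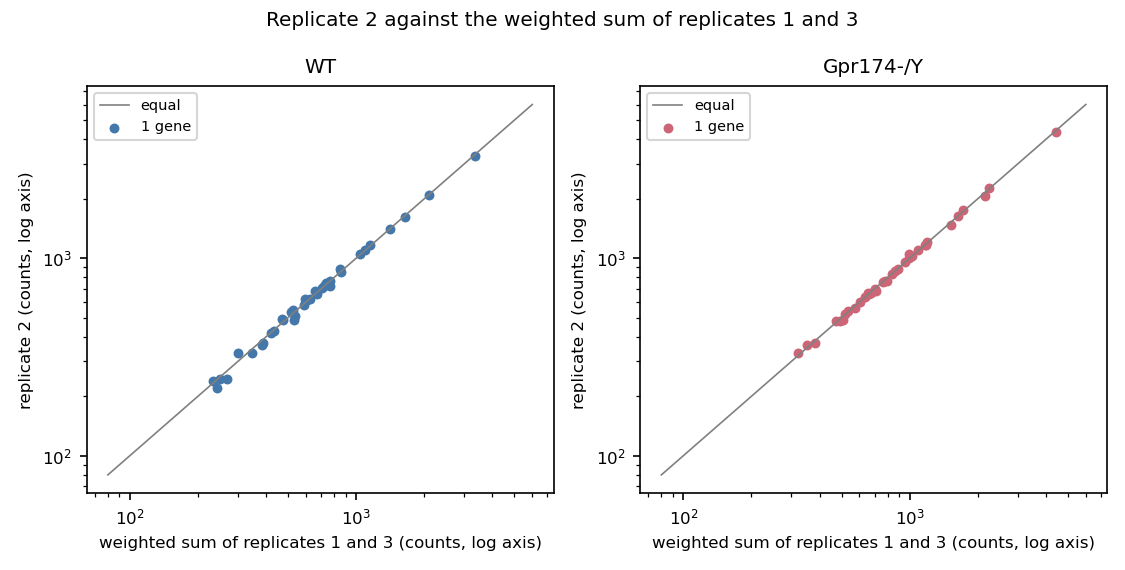
Counts of the 36 interferon-stimulated genes in replicate 2 (vertical, log axis) against the weighted sum of replicates 1 and 3 of the same group (horizontal, log axis), with WT on the left and Gpr174-/Y on the right. Points are genes and the line marks equality, and the median distance from the sum was 1.84% in WT and 1.44% in Gpr174-/Y muscle.

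The question for these genes was whether the interferon response of ischemic muscle differed between the genotypes. With all 6 libraries, 0 of the 36 genes passed an adjusted p of 0.05 (edgeR's quasi-likelihood test, Benjamini-Hochberg over 14395 genes), against 54.6% of all tested genes (27.0% higher and 27.6% lower in Gpr174-/Y muscle). With an absolute log2 fold change above 1 as a further condition, 0 of the 36 and 8.28% of all genes passed. Of the 36, 1 had an unadjusted p under 0.05, the chemokine gene Cxcl10, against 60.7% of all tested genes. DESeq2 likewise called 0 of them (47.3% of all genes), and limma voom called Cxcl10 alone (54.8% of all genes). The estimates were above 0 (higher in Gpr174-/Y) for 23 genes and below 0 for 13, with a median log2 fold change of 0.06, against 0.004 over all tested genes. Without replicate 2 of both groups, 0 of the 36 genes and 0 of 14447 genes in all passed, at unadjusted p values under 0.05 for 0 and 5026 of them (34.8% of all genes), so a comparison of 2 against 2 libraries made no call for any gene. The estimates of the 36 genes moved by at most 0.08 (Oas3) between these fits, on the log2 scale.

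Missing the threshold does not show that the levels were alike. The 95% interval of the log2 fold change reached from -0.84 to 1.02 for Isg15, from -1.60 to 0.82 for Irf7 and from -0.75 to 1.65 for Oas3, which includes changes beyond 2-fold. The lowest adjusted p values were 0.0567 for Cxcl10, 0.101 for Ifi35 and 0.289 for Irf1.

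**Figure D2:**
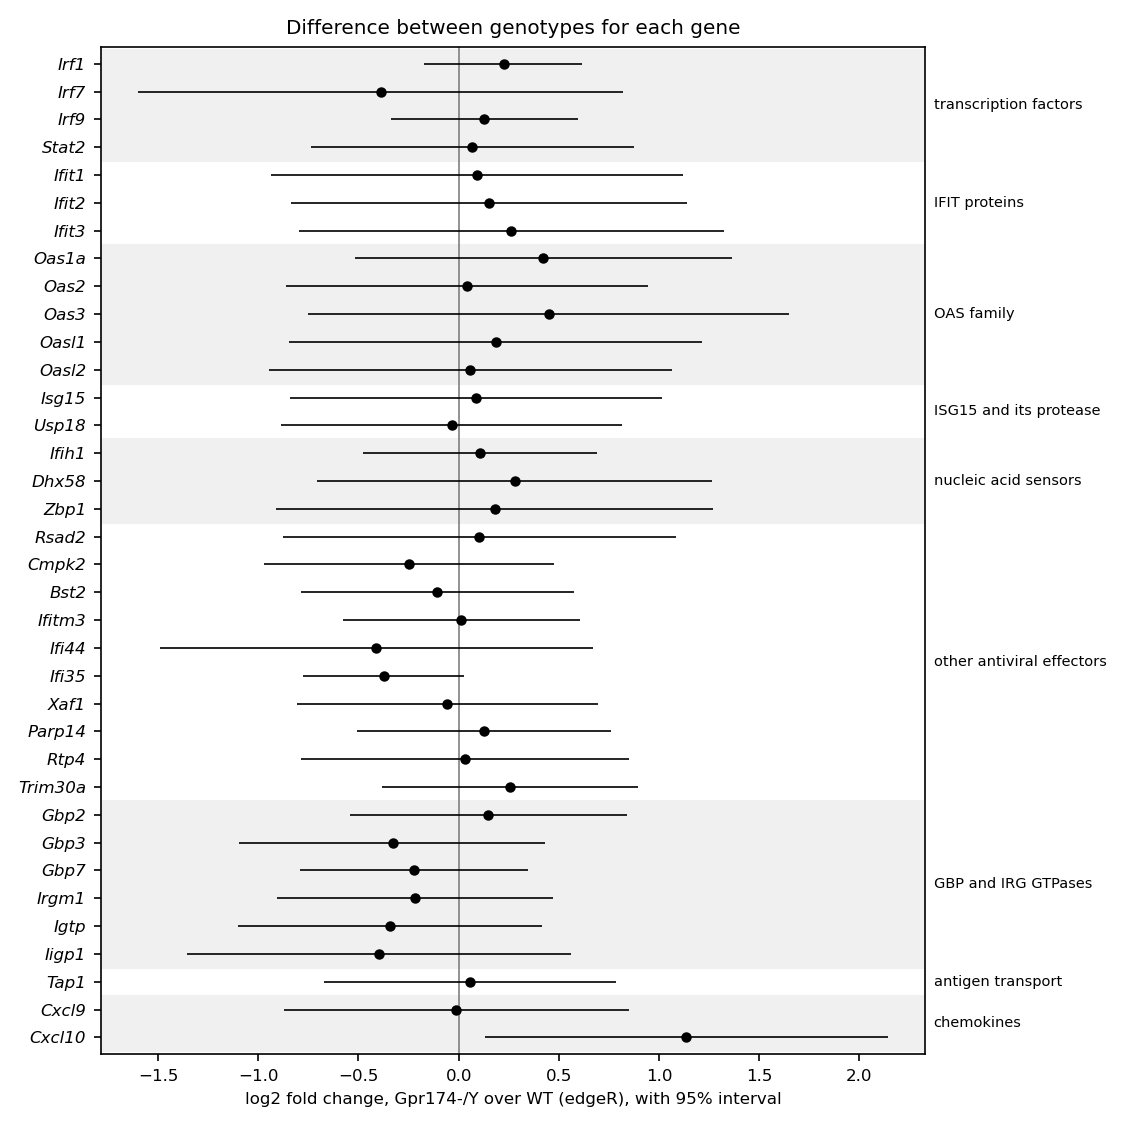
Log2 fold change of Gpr174-/Y over WT (horizontal) for each of the 36 genes, grouped by role, with 95% intervals from edgeR's fit on all 6 libraries. The interval lies wholly above 0 for Cxcl10, from 0.13 to 2.14, and includes 0 for the other 35 genes.

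Levels within each library are given below in CPM, counts divided by library size after trimmed-mean (TMM) scaling. The widest differences were found among the WT libraries. Every interferon-stimulated gene was lowest in WT replicate 1 and highest in WT replicate 3 (36 of 36), an order seen in 35.9% of all tested genes. Replicate 3 exceeded replicate 1 by between 1.63-fold (Ifi35) and 5.13-fold (Oas3), with a median of 3.08-fold, while the median over all genes was 1.00-fold. Of the 36 genes, 32 differed more than 2-fold between these libraries, against 3.86% of 14349 genes with counts in every library. Their ratios stood between the 92.6th and 99.7th percentile of all genes.

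Levels in Gpr174-/Y muscle were closer together. Replicate 1 was again lowest and replicate 3 highest for 35 of 36 genes (28.2% of all tested genes), the exception being Igtp. The ratio of replicate 3 to replicate 1 ran from 1.07-fold (Ifi35) to 1.82-fold (Zbp1), with a median of 1.31-fold, and 0 of the 36 genes passed 2-fold (0.822% of all genes did). The SD of log2 CPM was larger in WT than in Gpr174-/Y muscle for 36 of 36 genes, against 68.9% of all genes, and its median was 0.812 in WT and 0.196 in Gpr174-/Y muscle (0.128 and 0.074 over all genes). With 2 libraries in each group once replicate 2 is set aside, this difference in spread was described and not tested.

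**Figure D3:**
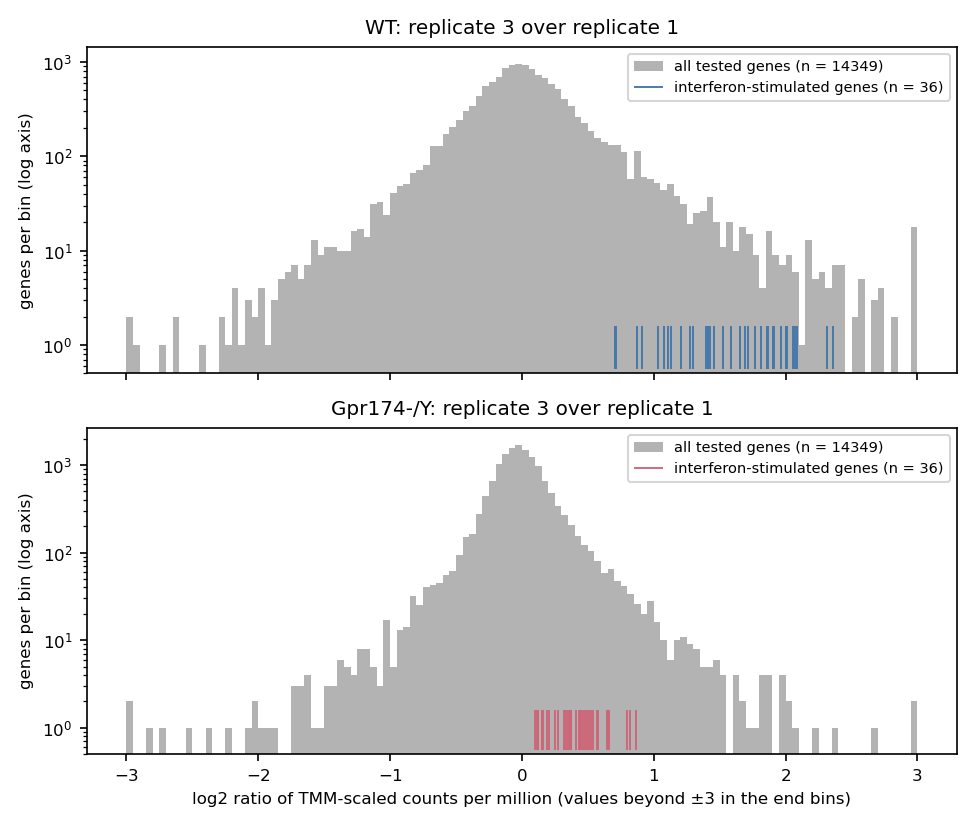
Log2 ratio of replicate 3 to replicate 1 (horizontal, TMM-scaled CPM) in WT (top) and Gpr174-/Y (bottom), with bars counting all 14349 genes on a log axis and coloured ticks marking the 36 interferon-stimulated genes. In WT the ticks lie in the upper tail, at 1.63-fold to 5.13-fold, and in Gpr174-/Y muscle they run from 1.07-fold to 1.82-fold.

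In CPM most Gpr174-/Y values accordingly fell inside the WT range. For 31 of the 36 genes all 3 Gpr174-/Y libraries lay between the lowest and the highest WT library, against 8.16% of all tested genes. The 5 others were Irf1, Ifi35, Trim30a, Gbp7 and Cxcl10. Fewer genes stayed inside the WT range in TPM, the share of all transcripts after division by transcript length, without TMM scaling. There Irf9, Stat2, Ifit3, Oas1a, Zbp1, Dhx58 and Ifih1, among others, had a Gpr174-/Y library above every WT one. Irf7 and Isg15 were among those that stayed inside. Summed over the 36 genes, the level was 920.7, 1617 and 2609 CPM in WT and 1513, 1686 and 1973 CPM in Gpr174-/Y muscle. In CPM, groups that did not overlap were found for 1 gene, Cxcl10, against 65.6% of all tested genes.

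**Figure D4:**
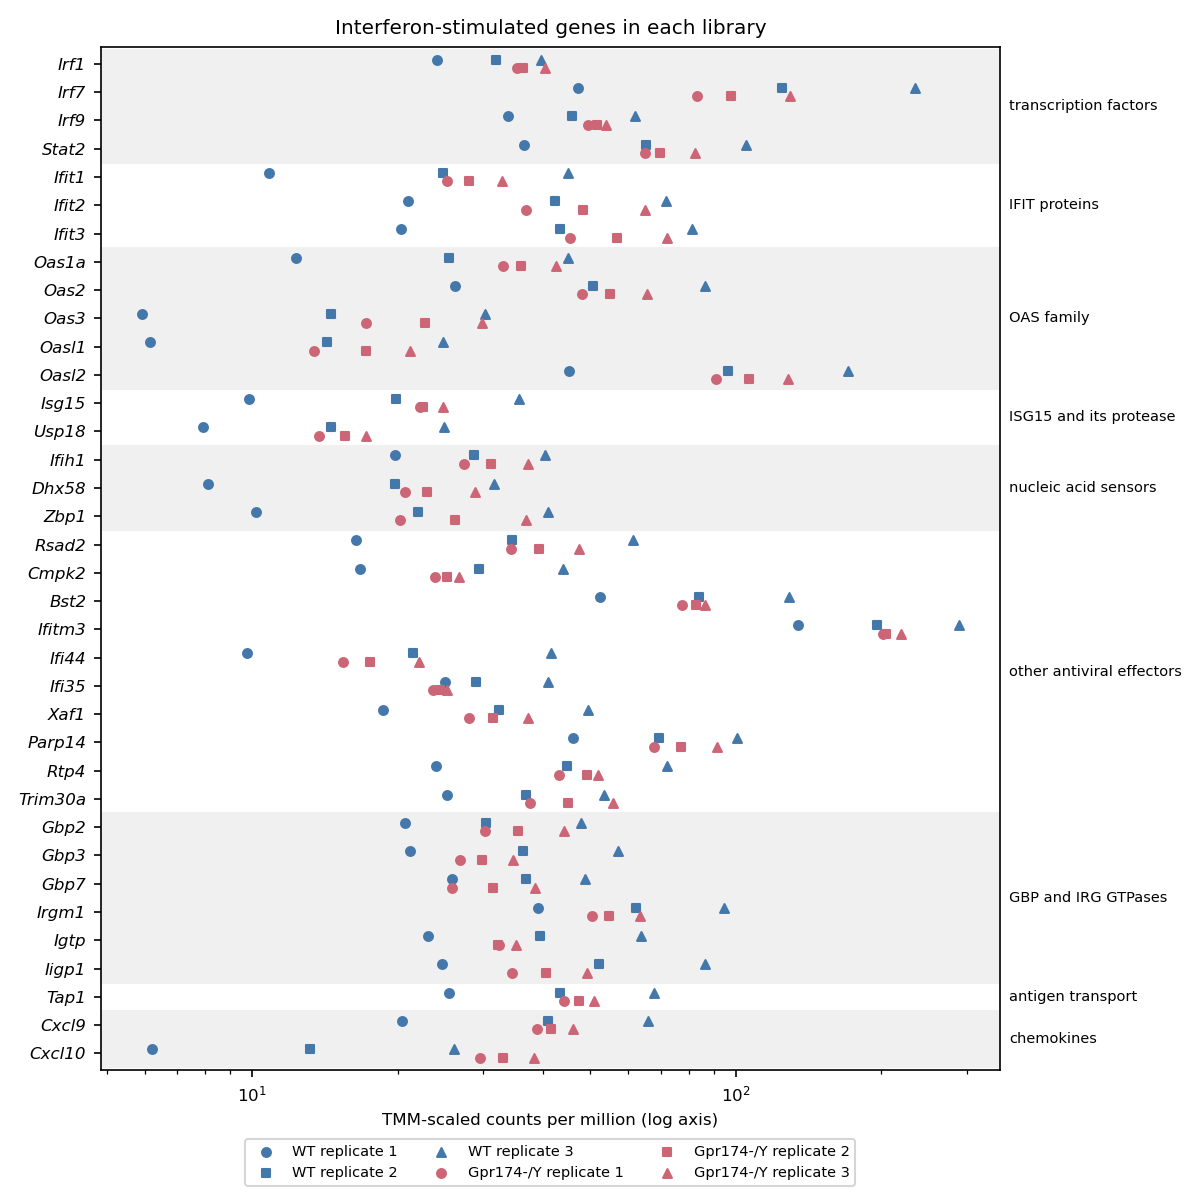
Level of each interferon-stimulated gene (horizontal, TMM-scaled CPM, log axis) in the 3 WT (blue) and 3 Gpr174-/Y (red) libraries, with circles, squares and triangles for replicates 1, 2 and 3, grouped by role. The red points lie within the span of the blue ones for 31 of the 36 genes, and wholly to the right of them for Cxcl10.

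Among the transcription factors, Irf7, which drives the amplifying phase of the type I response, had the widest WT range. Its level was 47.2, 124.5 and 234.4 CPM in WT and 83.0, 97.6 and 129.6 CPM in Gpr174-/Y muscle. The Gpr174-/Y libraries thus lay between the first and the third WT library, and the log2 fold change was -0.39 (SE 0.51, adjusted p = 0.542). Irf9, the DNA-binding part of the complex with STAT2, measured 33.8, 45.9 and 62.0 CPM in WT and 49.4, 51.7 and 53.9 CPM in Gpr174-/Y muscle. Stat2, its partner, measured 36.5, 65.2 and 105.0 CPM in WT and 64.9, 69.7 and 82.5 CPM in Gpr174-/Y muscle. For both, the Gpr174-/Y libraries lay inside the WT range in CPM, whereas in TPM the highest library was a Gpr174-/Y one. Irf1, a factor induced strongly by type II interferon, was 24.1, 31.9 and 39.6 CPM in WT and 35.3, 36.3 and 40.2 CPM in Gpr174-/Y muscle, so that its highest library was a Gpr174-/Y one (log2 fold change 0.22, SE 0.17, adjusted p = 0.289).

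The IFIT genes encode antiviral proteins, of which IFIT1 binds foreign RNA ends and restrains translation. Ifit1, with its pair of ISRE cores, was 10.8, 24.8 and 45.0 CPM in WT and 25.3, 28.1 and 32.8 CPM in Gpr174-/Y muscle. Ifit3 was 20.3, 43.3 and 81.3 CPM in WT and 45.4, 56.9 and 71.9 CPM in Gpr174-/Y muscle, and Ifit2, without the core in its window, spanned 21.0 to 71.6 CPM and 36.8 to 65.0 CPM. All 3 had estimates above 0, with log2 fold changes from 0.09 to 0.26, and WT ratios of replicate 3 to replicate 1 from 3.40-fold to 4.15-fold. Ifit3 has a close copy, Ifit3b (log2 fold change -0.20, SE 0.48, adjusted p = 0.754), and reads may be shared between them.

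The OAS family makes the oligoadenylate signal that activates RNase L, except for Oasl1, whose product lacks that activity. Oas3 had the widest ratio between WT replicates, at 5.91, 14.6 and 30.3 CPM, and was 17.2, 22.8 and 29.9 CPM in Gpr174-/Y muscle (log2 fold change 0.45, SE 0.51, adjusted p = 0.479). Oas1a was 12.3, 25.5 and 44.9 CPM in WT and 33.0, 35.98 and 42.4 CPM in Gpr174-/Y muscle (log2 fold change 0.42, SE 0.40, adjusted p = 0.397). For Oas3 and Oas1a, WT replicate 1 was far below every Gpr174-/Y library in CPM. WT replicate 3 was above all of them, though only just above the highest, Gpr174-/Y replicate 3. All 5 OAS genes had estimates above 0, from 0.04 (Oas2) to 0.45 (Oas3). Oas1a belongs to a cluster of near copies, of which Oas1g measured 3.73 to 11.2 CPM in WT and 7.31 to 8.62 CPM in Gpr174-/Y muscle, and reads may be shared among them.

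Isg15, which is conjugated to other proteins during the response, measured 9.83, 19.8 and 35.7 CPM in WT against 22.3, 22.6 and 24.8 CPM in Gpr174-/Y muscle. Usp18, the protease that removes ISG15 and dampens the receptor, measured 7.90, 14.6 and 24.9 CPM against 13.8, 15.5 and 17.2 CPM. In CPM the group means of both genes were nearly equal, at 21.8 ± 13.04 and 23.2 ± 1.37 CPM for Isg15 and 15.8 ± 8.56 and 15.5 ± 1.70 CPM for Usp18 (SD, n = 3 libraries in WT and in Gpr174-/Y muscle, respectively). In TPM the means were 53.69 ± 34.55 and 73.67 ± 6.795 for Isg15, and 15.96 ± 9.376 and 20.21 ± 2.891 for Usp18.

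In CPM the sensors of foreign nucleic acid fell within the WT range too. In TPM the highest library of each was a Gpr174-/Y one. Zbp1, which senses Z-form nucleic acid and can trigger necroptosis, was 10.2, 22.1 and 41.0 CPM in WT and 20.3, 26.2 and 36.9 CPM in Gpr174-/Y muscle, and had the largest ratio among the Gpr174-/Y libraries. Dhx58 (LGP2) and Ifih1 (MDA5), helicases that bind viral RNA, had estimates of 0.28 (SE 0.41) and 0.11 (SE 0.25).

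Other antiviral effectors were divided, with 5 estimates above 0 and 5 below. Ifitm3, a membrane protein that blocks viral entry, was the most abundant by length-scaled level, at 365.3, 556.1 and 870.0 TPM (the share of all transcripts after division by transcript length) in WT and 731.7, 760.3 and 851.9 TPM in Gpr174-/Y muscle. Bst2 (tetherin) came next, with group means of 202.1 ± 97.3 and 243.1 ± 21.2 TPM (SD, n = 3 each), followed in WT by Irf7 (133.5 ± 98.0 TPM) and Rtp4 (74.1 ± 42.5 TPM), each mean differing from the next by less than the larger SD. Oas3 was lowest, at 6.40 ± 4.95 TPM in WT. TPM carries no TMM scaling, and in TPM the sum over the 36 genes was 980.3, 1713 and 2888 in WT and 2122, 2355 and 2775 in Gpr174-/Y muscle, so that the Gpr174-/Y libraries stood higher against WT than in CPM.

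Ifi35, an interferon-induced leucine zipper protein, had the lowest adjusted p among the genes with an estimate below 0. It was 25.1, 29.1 and 40.9 CPM in WT and 23.7, 24.4 and 25.3 CPM in Gpr174-/Y muscle, where 2 of the 3 libraries lay below every WT library (log2 fold change -0.37, SE 0.17, adjusted p = 0.101). The estimate was -0.11 with scaling by total counts, -0.07 with log2(FPKM + 1) and -0.14 without WT replicate 3, and mean TPM was 41.6 in WT and 41.9 in Gpr174-/Y muscle. Rsad2 (viperin), whose product makes an antiviral nucleotide, was 16.4, 34.5 and 61.2 CPM in WT and 34.3, 39.2 and 47.3 CPM in Gpr174-/Y muscle. Cmpk2, its neighbour and substrate supplier, was 16.7, 29.5 and 43.9 CPM in WT and 23.9, 25.3 and 26.8 CPM in Gpr174-/Y muscle, so its 2 highest values were WT ones. Trim30a, a regulator of inflammatory signalling, reached its highest level in a Gpr174-/Y library (55.8 CPM, against 53.5 CPM in WT replicate 3). The remaining estimates ran from -0.41 (Ifi44) to 0.13 (Parp14).

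The guanylate-binding proteins (GBP) and immunity-related GTPases (IRG), which attack the vacuoles of intracellular pathogens and respond mainly to type II interferon, did not pass the test either. Of 6 genes, 5 had estimates below 0 and 1, Gbp2, above, with a median of -0.28. With scaling by total counts Gbp7 and Irgm1 turned positive, and with FPKM values or without WT replicate 3 all 6 were positive. Iigp1 was 24.6, 52.3 and 86.5 CPM in WT and 34.5, 40.6 and 49.2 CPM in Gpr174-/Y muscle (log2 fold change -0.40, SE 0.40, adjusted p = 0.432). Igtp, with an ISRE core close to its start, was 23.2, 39.4 and 63.7 CPM in WT and 32.4, 32.2 and 35.1 CPM in Gpr174-/Y muscle. Gbp2 was 20.7, 30.5 and 47.8 CPM in WT and 30.3, 35.5 and 44.1 CPM in Gpr174-/Y muscle. Tap1, the peptide transporter of antigen presentation, had an estimate of 0.06 (SE 0.31). Taking Irf1, Cxcl9, Tap1 and the GTPases as the genes that respond mainly to type II interferon, 3 of 9 had estimates above 0 (median -0.22), against 20 of the 27 others (median 0.09). The difference between these sets was not tested.

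The chemokine ligands of the receptor CXCR3 differed from each other in pattern. Cxcl10 (Entrez gene 15945, 1 transcript in the table) had 100, 221 and 465 counts in WT and 619, 700 and 823 counts in Gpr174-/Y muscle, which is 6.22, 13.2 and 26.1 CPM against 29.6, 33.0 and 38.3 CPM. All 3 Gpr174-/Y libraries lay above all 3 WT libraries, an arrangement found in 33.1% of all tested genes. The log2 fold change was 1.14 (SE 0.42, 95% interval 0.13 to 2.14), with an unadjusted p of 0.0319 and an adjusted p of 0.0567 by edgeR's quasi-likelihood test. The call depended on the method. The adjusted p was under the threshold with scaling by total counts (0.0318), limma voom (0.0297) and limma on log2(FPKM + 1) (0.0229, with 69.1% of all genes called). It was also under it with a replicate block (0.0338, with 47.3%). It was above the threshold with DESeq2 (0.0828) and with scaling by relative log expression (0.0575) or by the upper quartile (0.0537). Without a filter on low counts (0.0675), or with at least 10 counts required in every library (0.056), it was above too. Without replicate 2 the estimate was 1.06 (adjusted p = 0.284).

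Cxcl9, the other ligand of CXCR3 measured here and a gene that responds mainly to type II interferon, measured 20.4, 40.8 and 65.9 CPM in WT and 38.8, 41.6 and 46.1 CPM in Gpr174-/Y muscle, so that its groups overlapped (log2 fold change -0.01, SE 0.36, adjusted p = 0.982). The ratio of Cxcl10 to Cxcl9 counts within a library, which no scaling between libraries can move and which was chosen after its values had been seen, was 0.305, 0.322 and 0.396 in WT and 0.762, 0.793 and 0.831 in Gpr174-/Y muscle. The ratios did not overlap, nor did the levels of Cxcl10 by itself, as for 65.6% of all tested genes. The share of other gene pairs with separate ratios was not computed. An exact permutation test of the difference in mean ratio gave p = 0.1. That is the smallest value that 3 against 3 libraries can give, and any ratios that do not overlap give it. The test therefore could not decide the question, and it included replicate 2.

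Since the WT libraries were so far apart, the direction of nearly every gene turned on which of them was kept. Without WT replicate 1, 31 of the 36 estimates were below 0 (median -0.25) and 5 genes were called lower, namely Cmpk2 (log2 fold change -0.53, adjusted p = 0.0300), Ifi35 (-0.51, 0.0201), Gbp3 (-0.61, 0.0374), Igtp (-0.63, 0.0279) and Iigp1 (-0.74, 0.0334), while 24.2% of all 14563 tested genes were called lower. In the same fit Cxcl10 was called higher (0.78, adjusted p = 0.0445), as were 24.7% of all genes. Without WT replicate 3, 35 estimates were above 0 (median 0.47) and 4 genes were called higher, namely Irf1 (0.42, adjusted p = 0.0164), Irf9 (0.38, 0.0267), Oas1a (0.98, 0.0364) and Cxcl10 (1.80, 0.00379), against 31.7% of all 14587 tested genes. Leaving out WT replicate 2 gave 0 calls among the 36 (37.5% of all genes). Cxcl10 was called in both fits, with the same sign, but not without WT replicate 2 or without any of the Gpr174-/Y libraries (adjusted p = 0.10 to 0.16).

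**Figure D5:**
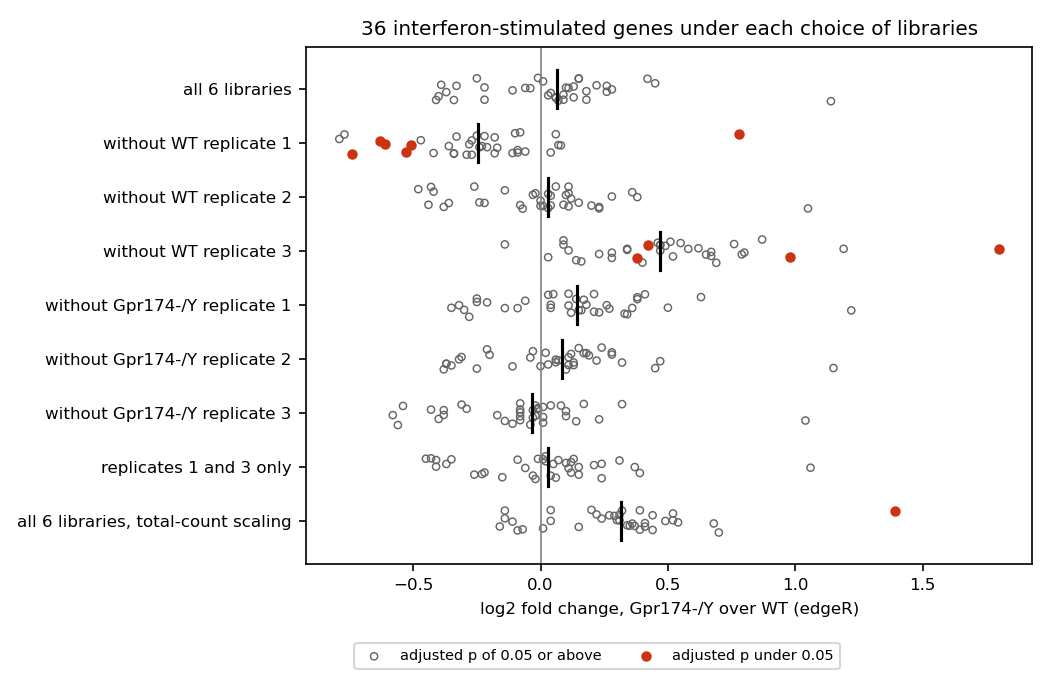
Log2 fold change of Gpr174-/Y over WT (horizontal, edgeR) for the 36 genes under each choice of libraries (rows), with filled red points for an adjusted p under 0.05 and a bar at the median. The median lies at -0.25 without WT replicate 1 and at 0.47 without WT replicate 3, against 0.06 with all 6 libraries.

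Scaling by total counts moved the median log2 fold change of all genes up by 0.27, to 0.28, and that of the 36 genes to 0.32, so that relative to all genes they stayed close to where they were. Over all genes it turned 3891 higher and 3972 lower calls into 7303 and 2010. With it, 30 of the 36 estimates were above 0, and 1 gene (Cxcl10) was called, against 64.7% of all genes.

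Components of the pathway upstream of these genes passed the test about as often as genes at large when both directions were counted together, though mostly as higher. Of 37 listed ligands, receptors, kinases, factors and sensors, 30 could be tested, of which 14 were higher and 2 lower in Gpr174-/Y muscle (median log2 fold change 0.26) and 14 did not pass, against 27.0% higher and 27.6% lower among all tested genes. The macrophage markers given below were higher as well, and their part in these differences was not tested. Without replicate 2 none of the 30 passed, as for all genes. Ifnar1 and Ifnar2, the type I receptor chains, rose by 0.34 (SE 0.05, adjusted p = 0.00224) and 0.33 (SE 0.08, adjusted p = 0.0105) on the log2 scale. Of the type II receptor chains, Ifngr2 fell by 0.32 (SE 0.07, adjusted p = 0.00849), and Ifngr1 had an estimate of 0.08 (adjusted p = 0.373). With scaling by total counts Ifngr2 was not called (-0.04, adjusted p = 0.549) and Ifngr1 was (0.35, adjusted p = 0.0174), as with FPKM values. The kinases Jak1 (-0.13, adjusted p = 0.0824), Jak2 (0.05, 0.551) and Tyk2 (0.18, 0.0508) did not pass. With scaling by total counts all 3 passed as higher, Jak1 at 0.14 (adjusted p = 0.0402), Jak2 at 0.33 (0.00462) and Tyk2 at 0.45 (0.00451), and so they did with FPKM values.

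The largest change in that list was in a feedback inhibitor. Socs3, which restrains cytokine receptors and is induced chiefly through STAT3, was 10.3, 12.6 and 18.2 CPM in WT and 43.8, 44.0 and 44.9 CPM in Gpr174-/Y muscle (log2 fold change 1.69, SE 0.18, adjusted p = 0.00102). The groups were far apart. Socs1, the inhibitor induced by type II interferon, was 4.73, 5.89 and 8.09 CPM in WT and 9.84, 9.23 and 8.65 CPM in Gpr174-/Y muscle (0.56, SE 0.18, adjusted p = 0.0366). The phosphatase gene Ptpn6 (0.85, adjusted p = 0.00825), the DNA sensor gene Cgas (0.73, adjusted p = 0.00448) and Irf3 (0.18, adjusted p = 0.0227) rose, and Mavs, the adaptor of RNA helicases, fell by 0.69 (adjusted p = 0.00125).

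Ifng, the type II interferon, had 1, 4 and 4 counts in WT and 3, 4 and 5 counts in Gpr174-/Y muscle and was removed by the filter on low counts, so a difference in the ligand was not detectable at this depth. Ifnb1 was not analysed here.

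A second list of 58 further interferon-responsive genes was examined. Of 55 tested, 3 were higher, 2 lower and 50 did not pass (27.0% and 27.6% of all tested genes were higher and lower), with a median log2 fold change of 0.13, and WT replicate 3 exceeded replicate 1 in 54 of 55 (median 2.02-fold), against 50.2% of all tested genes. The genes called were Ifi30, a lysosomal reductase of antigen processing (0.99, adjusted p = 0.00146), Ifit1bl1 (0.67, 0.0456) and Ifitm2 (0.29, 0.0368), and, as lower, Gbp4 (-0.83, 0.0214) and Gbp9 (-0.50, 0.0349). Gbp4 measured 14.4, 21.96 and 29.1 CPM in WT and 12.04, 13.1 and 11.6 CPM in Gpr174-/Y muscle. It was not called with scaling by total counts (-0.57, adjusted p = 0.0924) or with log2(FPKM + 1) (-0.40, 0.142), nor was Gbp9 (-0.23, 0.317, and -0.17, 0.398), and GBP genes are near copies whose reads may be shared. Without replicate 2 the list had 0 calls, and with 1 library left out it had between 1 and 27.

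Marker RNA of several cell types differed between the libraries along with these values, against 27.0% of all tested genes called higher and 27.6% lower. Without replicate 2 no marker passed, since no gene did. All 8 macrophage markers were higher in Gpr174-/Y muscle (summed level 1096 to 1564 CPM in WT and 2586 to 2602 CPM in Gpr174-/Y), and in WT the sum was lowest in replicate 1 and highest in replicate 3, as were the interferon-stimulated genes. All 14 mature fibre markers were lower (136100 to 195800 CPM in WT and 60850 to 68180 CPM in Gpr174-/Y), with the highest WT value in replicate 1 and the lowest in replicate 3, and 5 of 7 regenerating fibre markers were higher (2396 to 4852 CPM and 4748 to 5588 CPM). Endothelial markers were lower for 8 of 8 (985.7 to 1184 CPM and 604.8 to 691.0 CPM). Of 5 fibroblast markers 2 were higher and 3 lower (11750 to 16600 CPM and 20600 to 23560 CPM). In WT the regenerating fibre, fibroblast and neutrophil sums also rose from replicate 1 to replicate 3. By single tested marker, WT replicate 3 exceeded replicate 1 in 8 of 8 for macrophages and 7 of 7 for regenerating fibres. It did so in 3 of 5 for fibroblasts and 1 of 2 for neutrophils. In Gpr174-/Y muscle the macrophage sum was 2586, 2599 and 2602 CPM, and the regenerating fibre sum fell (5588, 5264 and 4748 CPM). The labelled tissue thus carried its markers in every library. Their part in the levels of the interferon-stimulated genes was not tested.

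Markers of the lymphoid and granulocytic cells that make or answer interferon were scarce. Of 9 T and NK cell markers 8 were tested, 0 were higher and 1, Ncr1, was lower (-0.95, adjusted p = 0.00668), with sums of 18.7 to 35.1 CPM in WT and 27.3 to 31.7 CPM in Gpr174-/Y muscle. In WT that sum, too, was lowest in replicate 1 and highest in replicate 3, but it was mostly Cd4 (10.1, 13.9 and 19.2 CPM). Replicate 3 exceeded replicate 1 in 6 of the 8 tested markers, while Cd3e was lowest in replicate 3 (16, 24 and 10 counts). Neutrophil markers summed to 22.2 to 28.8 CPM and 32.5 to 35.5 CPM, with 1 of 2 tested genes higher and 1 lower, and Ly6g, Ngp and Camp were at 0 or 1 count in every library. Of 4 B cell markers 2 were tested and 0 called (1.90 to 2.67 CPM and 2.56 to 3.26 CPM). Of 6 genes listed for plasmacytoid dendritic cells, the main source of type I interferon, 5 were tested, with 1 higher and 2 lower. The list's sum (853.5 to 1054 CPM and 440.3 to 452.0 CPM) was mostly Cox6a2, which muscle fibres also express, and the defining marker Siglech had 28 to 34 counts in WT and 21 to 29 in Gpr174-/Y muscle (-0.67, SE 0.18, adjusted p = 0.0180). The part of these cells in the results was not tested.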

How the data were processed

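Total RNA of ischemic muscle was sequenced in 3 WT and 3 Gpr174-/Y libraries. The authors deposited, per RefSeq transcript, expected counts, FPKM and TPM. The submitters' processing notes name HISAT2 2.0.4, Bowtie2 2.2.5, RSEM 1.2.12 and build GRCm39, without their settings. The table holds 58843 transcripts of 18089 genes, 18037 with a RefSeq symbol. The deposited averages over each group were not used. The authors' test (DEGseq) does not model the spread between replicates and was replaced.

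Expected counts were summed per Entrez gene, rounded, and tested with edgeR 4.0.16 (TMM scaling, filterByExpr, robust quasi-likelihood test, genotype as the only term, Benjamini-Hochberg over 14395 genes) in R 4.3.3. Common dispersion was 0.00967. A gene was called at an adjusted p under 0.05. An absolute log2 fold change above 1 was added where stated. CPM are scaled by TMM, and TPM of a gene are the sums of the deposited transcript TPM. The SE is the absolute log2 fold change over the square root of F, and intervals are 95%. DESeq2 1.42.0, limma 3.58.1 (voom, and log2 of FPKM plus 1 or 0.1 keeping genes that reached an FPKM of 1 in 3 libraries), other scalings and filters and left-out libraries were alternatives. Scripts were tested on simulated data with independent libraries and the same dispersion for every gene. That simulation does not show how the test behaves with replicate 2 as found, or for genes as variable as these in WT. Libraries labelled as replicates are not stated to be single mice, so p-values measure the spread between these libraries, and counting precision is set by the 18417077 to 19394469 counts of each. Equal replicate numbers are not stated to pair WT and Gpr174-/Y libraries. Over all tested genes, the deviations of equally numbered libraries correlated at 0.001, -0.001 and -0.016. These values do not describe the interferon-stimulated genes by themselves, which rose from replicate 1 to replicate 3 in both groups. A batch shared by number was not tested.

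The members and lists were chosen with earlier results of these data known. The genes named are all listed interferon-stimulated genes. From both further lists the 3 highest and 3 lowest log2 fold changes among called genes were named, together with Ifng, Ifnb1, Ifnar1, Ifnar2, Ifngr1, Ifngr2, Jak1, Jak2, Tyk2, Socs1, cell type markers and Gpr174, and 1 further gene of that rule is not reported here. Oas1g and Ifit3b were added as near copies of members. Promoter windows come from RefSeq (GRCm38.p6), a different build from the one used for the counts.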

Additional observations from a re-analysis of the deposited data

How the results depend on the processing

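With all 6 libraries 0 of the 36 genes were called, and 0 passed both thresholds. Each count became 1 (Cxcl10) with scaling by total counts, limma voom, log2(FPKM + 1), log2(FPKM + 0.1) and the replicate block, and ran from 0 to 6 and from 0 to 1 with a library left out. Over all genes the calls numbered 7863 and fell to 0 with replicates 1 and 3 only. Genes past both thresholds numbered 1192, against 645 with log2(FPKM + 1), 0 with replicates 1 and 3 only, and 924 to 1826 with a library left out. The pathway list had 16 calls, 25 with total counts and with either FPKM setting, 0 with replicates 1 and 3 only and 11 to 22 with a library left out. The further list had 5 calls, 0 with replicates 1 and 3 only and 1 to 27 with a library left out.

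Several estimates turned positive with total counts or with the FPKM settings, which also change the test, the unit and the filter. With log2(FPKM + 1) the estimates became 0.13 for Irf7, 0.33 for Usp18, 0.11 for Cmpk2, 0.26 for Bst2, 0.04 for Ifi44, 0.23 for Xaf1, 0.05 for Gbp3, 0.06 for Gbp7, 0.15 for Irgm1, 0.04 for Igtp, 0.03 for Iigp1, 0.38 for Cxcl9 and 0.15 for Jak1. With log2(FPKM + 0.1) they became 0.14 for Irf7, 0.39 for Usp18, 0.13 for Cmpk2, 0.26 for Bst2, 0.08 for Ifi44, 0.25 for Xaf1, 0.07 for Gbp3, 0.08 for Gbp7, 0.16 for Irgm1, 0.05 for Igtp, 0.04 for Iigp1, 0.42 for Cxcl9 and 0.15 for Jak1. The median of all genes moved by 0.258 and 0.274 in these settings. With total counts they became 0.22 for Usp18, 0.01 for Cmpk2, 0.15 for Bst2, 0.20 for Xaf1, 0.04 for Gbp7, 0.04 for Irgm1, 0.24 for Cxcl9 and 0.14 for Jak1. With voom Usp18 was 0.10, Xaf1 0.04 and Cxcl9 0.14, with the upper quartile Cxcl9 was 0.01, and with replicates 1 and 3 only Ifitm3 was -0.01 and Rtp4 -0.02. With the replicate block Usp18 was 0.07, Xaf1 0.03 and Cxcl9 0.11, Cxcl10 passed (1.29, adjusted p = 0.0338), Irf3, Socs1 and Ifitm2 no longer passed (adjusted p = 0.0610, 0.0746 and 0.0880), and all genes had 6812 calls. Equal numbers are not stated to pair libraries, so this block has no stated basis in the design.

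Estimates with 1 library left out ranged from -0.79 to 0.28 for Irf7, -0.06 to 0.38 for Irf9, -0.23 to 0.51 for Stat2, -0.27 to 0.69 for Ifit1, -0.18 to 0.67 for Ifit2, -0.09 to 0.87 for Ifit3, -0.28 to 0.55 for Oas2, -0.17 to 0.76 for Oasl1, -0.29 to 0.62 for Oasl2, -0.25 to 0.65 for Isg15, -0.34 to 0.47 for Usp18, -0.11 to 0.40 for Ifih1, -0.08 to 0.80 for Dhx58 and -0.18 to 0.79 for Zbp1. They ranged from -0.24 to 0.67 for Rsad2, -0.53 to 0.14 for Cmpk2, -0.36 to 0.28 for Bst2, -0.21 to 0.34 for Ifitm3, -0.77 to 0.23 for Ifi44, -0.34 to 0.34 for Xaf1, -0.10 to 0.46 for Parp14, -0.27 to 0.49 for Rtp4, -0.09 to 0.52 for Gbp2, -0.61 to 0.09 for Gbp3, -0.42 to 0.03 for Gbp7, -0.47 to 0.16 for Irgm1, -0.63 to 0.09 for Igtp, -0.74 to 0.11 for Iigp1, -0.22 to 0.47 for Tap1 and -0.33 to 0.47 for Cxcl9. The 6 genes that kept their sign ranged from 0.07 to 0.42 for Irf1, 0.08 to 0.98 for Oas1a, 0.06 to 1.19 for Oas3, 0.04 to 0.58 for Trim30a, -0.51 to -0.14 for Ifi35 and 0.78 to 1.80 for Cxcl10. For all 36 genes the lowest value came without WT replicate 1 and the highest without WT replicate 3. Of 612 values of the 36 genes, 511 kept their direction and side of the threshold, 15 newly passed it and 86 turned direction. The causes were not tested. The lowest count among the 36 genes in any library was 95 (Oas3 in WT replicate 1), and for Ifng and Gpr174, at 0 to 8 counts, depth limits any statement.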
